A study of Mus musculus with 4 samples.

Results

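The 102 genes described here are the protein-coding mouse genes whose symbols place them in 10 solute carrier families that move amino acids, sugars and monocarboxylates (SLC1, SLC2, SLC3, SLC5, SLC6, SLC7, SLC16, SLC36, SLC38 and SLC43). They were taken by symbol from GENCODE release M21 out of 53715 gene rows, with 1 SLC38 gene left out by the rule and not analysed here. Poly(A) RNA of whole embryos at the 2-cell stage, labelled as strain C57BL/DBA2, was sequenced from pre-amplified cDNA in 4 libraries. The 2 knockdown libraries came from zygotes injected with siRNA against SPENH0335, an RNA that the series' title places among those derived from enhancers, and the 2 control libraries from zygotes injected with siNC, the control siRNA. Both siRNAs were injected at 20 μM, and both groups had been collected from the oviduct and cultured in KSOM, an embryo culture medium. The sources used here give neither the number of embryos in a library nor their separate origin, and p-values therefore measure no more than the spread among 4 libraries, which may be technical.

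Early embryos are known to depend on monocarboxylates such as pyruvate before they turn to glucose, and they take up amino acids both as nutrients and as osmolytes. SLC2 carriers let hexoses through by facilitated diffusion, SLC16 carriers move monocarboxylates with protons, and SLC5, SLC6 and SLC38 carriers couple uptake to sodium. SLC7 light chains need a heavy chain of the SLC3 family to reach the membrane.

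The deposited values were counts per gene, with totals of 94257563 and 99011109 in the knockdown libraries and 87900405 and 78865491 in the control libraries. Markers of the 2-cell embryo, such as the Zscan4 genes, Zfp352 and the oocyte-derived Nlrp5, summed to 3329.1 and 3323.6 CPM (counts scaled to a common library total) in knockdown and to 3088.2 and 3270.5 CPM in control. Most of each sum was 1 marker, Dppa3, with 1947.9 and 1955.5 CPM in knockdown and 1820.5 and 1998.1 CPM in control. Of the 8 embryo markers 8 were tested by edgeR, and 3 were higher in knockdown and 0 lower at an unadjusted p under 0.05. These 3 were Zscan4c, Zscan4d and Zscan4f, which belong to 1 gene family. Of the 8 markers, 5 had a log2 fold change above 0. Among all 25565 genes tested, 1.56% were higher and 2.29% lower at that p. Cumulus and granulosa markers summed to 274.1 and 352.2 CPM in knockdown and to 333.0 and 327.8 CPM in control, with 11 of 13 tested, 0 higher and 1 lower unadjusted, and Inha at 0 in the 4 libraries. Serpine2 and Cyp19a1 carried nearly all of this sum, and the other 11 markers, each at 5.56 CPM or less in every library, summed to 12.8 and 14.3 CPM in knockdown and to 13.6 and 16.5 CPM in control. Blood and stroma markers summed to 40.2 and 16.5 CPM in knockdown and to 38.7 and 61.5 CPM in control, with 5 of 8 tested, 0 past an unadjusted p of 0.05, and Hbb-bs, Hbb-bt and Col3a1 at 0. Of the 5 tested, 0 had a log2 fold change above 0, and their median was -0.69. Hba-a1, Hba-a2 and Lyz2 carried nearly all of this sum. Lyz2 had 4.19 and 1.44 CPM in knockdown and 4.18 and 19.4 CPM in control. Whether cells other than the embryo contributed to the transporter values was not tested. No row was named for SPENH0335, so its level was not checked, and the labels' assignment of libraries was taken as given.

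Together the 102 genes held 1260.4 and 1304.9 CPM in the knockdown libraries and 1284.9 and 1279.4 CPM in the control libraries, or 1282.6 ± 31.5 and 1282.1 ± 3.87 CPM (SD, n = 2 each). The summed level of the control libraries lay within the range of the knockdown libraries. Of these genes, 47 (46.1%) reached 1 CPM in all 4 libraries, against 11598 of 21890 protein-coding genes (53.0%). The 7 genes Slc1a6, Slc5a7, Slc7a12, Slc7a13, Slc16a8, Slc36a2 and Slc36a3 had 0 counts in every library. In a bulk library, fewer cells with a transcript and less of it per cell cannot be told apart.

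Levels of different carriers are compared as CPM per kilobase of merged exons. They are mRNA levels, and neither protein nor transport was measured. Of the 102 genes, 101 are carriers or their subunits. They were sorted by substrate, family or subunit type into 21 classes, some of which pool several substrates. Each class is led by the gene with the highest mean over the 4 libraries. Slc7a6os, an opposite-strand neighbour of Slc7a6, also fits the symbol rule but is no carrier. It had 48.8 and 46.1 CPM in knockdown and 45.2 and 44.7 CPM in control. In 18 of the 21 classes the same carrier was highest in each of the 4 libraries, and in 15 classes the leader's range over the libraries stayed above that of the next carrier. The 4 highest genes, Slc3a2, Slc43a3, Slc6a15 and Slc7a2, made up 48.9 and 54.2% of the summed level per kilobase in the knockdown libraries and 50.1 and 51.4% in the control libraries. Levels and their order across classes depend on the length used. With the longest transcript, Slc43a3 (mean 53.0) stood above Slc3a2 (52.1). With the median transcript length the 4 highest were Slc43a3, Slc3a2, Slc6a6 and Slc6a15, and the mean of Slc6a6 was 80.1 against 5.29 CPM per kilobase of merged exons.

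**Figure D1:**
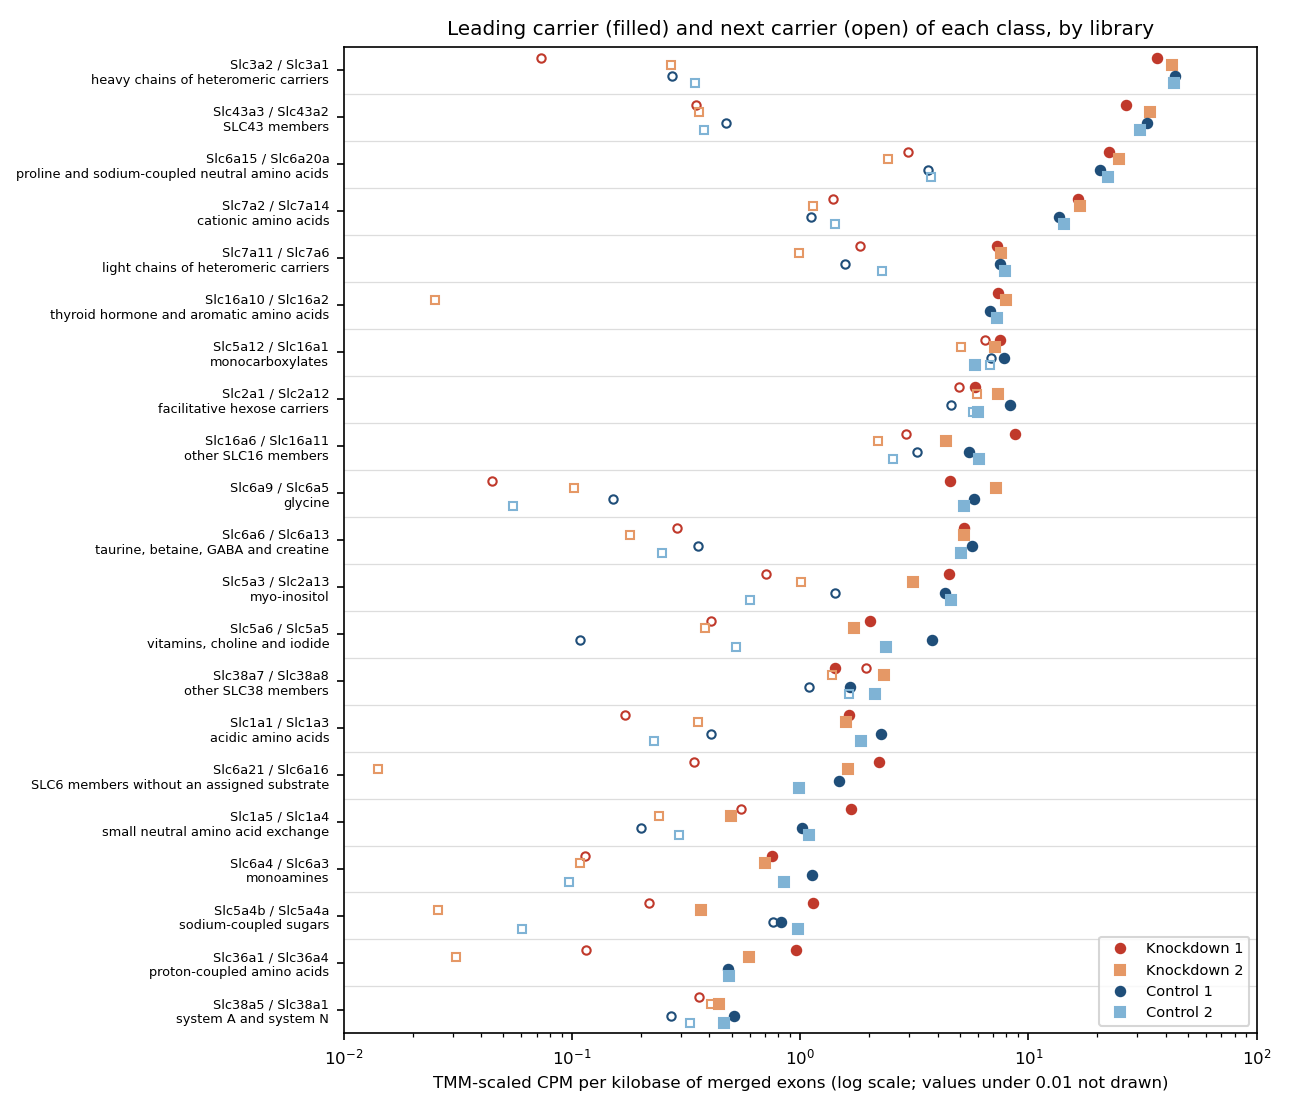
TMM-scaled CPM per kilobase of merged exons (x axis, log scale) of the leading carrier (filled) and the next carrier (open) in each of the 21 classes (rows), with 1 symbol per library for 2 knockdown and 2 control libraries. Slc3a2 leads its class from 36.6 upwards in every library, whereas Slc2a1 and Slc2a12, and likewise Slc5a12 and Slc16a1, lie close together.

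The RefSeq promoter windows (GRCm38.p6, 250 bases before to 50 after the annotated start) of 4 leading or near-leading carriers are printed to show how these starts differ in CpG content and motifs. No window of Slc43a3, Slc6a15 or Slc7a2 was used here. They are Slc3a2 on chr19:8713848-8714147 (minus strand), Slc7a11 on chr3:50443564-50443863 (minus strand), Slc16a1 on chr3:104638414-104638713 (plus strand) and Slc2a1 on chr4:119108495-119108794 (plus strand). Each runs 5′ to 3′ on the gene's strand. Capitals mark GGGCGG, a motif of SP family factors, or TGATGNAA, the element bound by ATF4 in the amino acid response, on either strand.
Slc3a2: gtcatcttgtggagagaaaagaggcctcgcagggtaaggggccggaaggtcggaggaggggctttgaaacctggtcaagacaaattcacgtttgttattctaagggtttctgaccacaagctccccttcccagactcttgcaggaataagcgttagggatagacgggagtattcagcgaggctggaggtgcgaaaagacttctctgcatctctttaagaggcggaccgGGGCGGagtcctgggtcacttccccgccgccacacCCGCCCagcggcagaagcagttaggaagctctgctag
Slc7a11: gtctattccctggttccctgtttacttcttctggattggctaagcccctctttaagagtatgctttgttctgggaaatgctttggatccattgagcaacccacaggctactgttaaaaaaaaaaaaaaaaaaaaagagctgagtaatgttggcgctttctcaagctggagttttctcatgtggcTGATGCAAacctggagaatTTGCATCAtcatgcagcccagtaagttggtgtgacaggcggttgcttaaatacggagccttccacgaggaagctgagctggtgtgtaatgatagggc
Slc16a1: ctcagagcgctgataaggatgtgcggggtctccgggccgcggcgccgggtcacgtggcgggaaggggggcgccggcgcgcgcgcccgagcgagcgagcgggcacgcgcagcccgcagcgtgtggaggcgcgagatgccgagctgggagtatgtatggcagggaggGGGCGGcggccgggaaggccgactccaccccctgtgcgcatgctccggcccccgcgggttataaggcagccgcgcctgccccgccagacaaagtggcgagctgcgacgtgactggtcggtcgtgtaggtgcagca
Slc2a1: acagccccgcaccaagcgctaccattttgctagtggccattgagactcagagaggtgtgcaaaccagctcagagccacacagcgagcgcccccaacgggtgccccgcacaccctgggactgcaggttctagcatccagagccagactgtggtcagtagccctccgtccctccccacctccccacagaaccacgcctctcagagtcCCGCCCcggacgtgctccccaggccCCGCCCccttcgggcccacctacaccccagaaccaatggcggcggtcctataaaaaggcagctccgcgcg

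The windows of Slc3a2 and Slc2a1 each held 2 matches to GGGCGG and that of Slc16a1 held 1. Slc7a11 had none of these, and its 2 TGATGNAA matches began 66 and 47 bases before the annotated start. TATAAA, the TATA box, was also searched on either strand and is not capitalized. Among the printed windows it occurred only in that of Slc2a1, from base 29 after the annotated start. CpG content also set the 4 windows apart, with an observed over expected ratio of 1.06 for Slc16a1, 0.649 for Slc3a2, 0.605 for Slc2a1 and 0.271 for Slc7a11. Windows were found for 74 of the 102 genes. For a gene with several windows only the first listed was used. Among 43 genes that averaged 1 CPM or more the median CpG ratio was 0.666, against 0.376 among 31 genes under 1 CPM and 0.389 over 27025 genes with a window. GGGCGG occurred in 28 of the 43 (65.1%) and in 13 of the 31 (41.9%), against 35.9% of the 27025 genes. TGATGNAA occurred in 4 of the 43 (9.30%) and in 0 of the 31, against 4.06% of those genes. TATAAA occurred in 3 of the 43 (6.98%) and in 5 of the 31 (16.1%), against 14.2% of those genes. The 27025 genes were taken whatever their expression, and those at 1 CPM or more were not set apart. Whether these ratios and shares are particular to the transporters was therefore not tested. A match describes letters in the window only, and the RefSeq start may not be the one used at the 2-cell stage.

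Facilitative hexose carriers were led in mRNA level by Slc2a1, which encodes GLUT1, the widespread basal glucose carrier. It lies on chromosome 4 from 119108711 to 119137983 (GRCm38, plus strand). It had 5.81 and 7.33 CPM per kilobase in knockdown and 8.26 and 5.98 CPM per kilobase in control. Next came Slc2a12, encoding GLUT12, with 4.97 and 5.97 CPM per kilobase in knockdown and 4.57 and 5.73 CPM per kilobase in control. Slc2a1 was the higher of the pair in each library, but their ranges overlapped, so the order does not hold beyond the spread between libraries. Both also overlapped between groups, with a log2 fold change of -0.12 (SE 0.25) for Slc2a1 and 0.09 (SE 0.22) for Slc2a12. Opposite-strand Tbpl1 covers 9.61% of the Slc2a12 exon bases, and the strand setting of the counting is not known.

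Slc2a3, which encodes the high-affinity carrier GLUT3, spread more widely, with 10.8 and 3.19 CPM in knockdown and 5.20 and 6.90 CPM in control. The knockdown libraries lay on either side of the control libraries. Slc2a9, a urate carrier, had 2.98 and 3.42 CPM in knockdown and 4.09 and 4.15 CPM in control. Slc2a10, encoding GLUT10, had 0.943 and 1.24 CPM in knockdown and 2.90 and 1.49 CPM in control. For both genes the groups did not overlap, and neither passed the test.

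Sodium-coupled sugar carriers stood low. The leader was Slc5a4b, with 1.14 and 0.369 CPM per kilobase in knockdown and 0.824 and 0.980 CPM per kilobase in control, and its range overlapped that of the next carrier, Slc5a4a. Myo-inositol, an osmolyte, had a clearer leader in Slc5a3, encoding the sodium-coupled carrier SMIT1. Slc5a3 had 4.48 and 3.13 CPM per kilobase in knockdown and 4.29 and 4.58 CPM per kilobase in control, above the proton-coupled Slc2a13 in each library. Its log2 fold change was -0.22 (SE 0.21).

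For monocarboxylates 2 carriers of different families shared the lead. Slc5a12, on chromosome 2 from 110597298 to 110647779 (plus strand), encodes a sodium-coupled carrier of lactate and related acids, and had 7.52 and 7.13 CPM per kilobase in knockdown and 7.78 and 5.82 CPM per kilobase in control. Slc16a1, which encodes the proton-coupled carrier MCT1 and spans 104638668 to 104658462 on chromosome 3 (plus strand), had 6.48 and 5.05 CPM per kilobase in knockdown and 6.83 and 6.76 CPM per kilobase in control. Slc5a12 was higher in 3 of the 4 libraries and Slc16a1 in the second control library, so their order does not hold beyond the spread. Slc16a1 did not overlap between groups, with 28.7 and 22.3 CPM in knockdown and 30.2 and 29.9 CPM in control, but its log2 fold change of -0.24 (SE 0.20) did not pass the test. For Slc5a12 the fold change was 0.11 (SE 0.21) on the log2 scale.

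Among the other monocarboxylate carriers, Slc16a7, encoding MCT2, had 2.22 and 3.58 CPM in knockdown and 2.53 and 4.67 CPM in control, and the groups overlapped. Slc16a3, encoding MCT4, the lactate exporter of glycolytic cells, had 1.41 and 0 CPM in knockdown and 0.474 and 0.187 CPM in control. Slc5a8, a sodium-coupled carrier related to Slc5a12, had 1.14 and 1.00 CPM in knockdown and 2.77 and 4.29 CPM in control. Both knockdown values of Slc5a8 lay under both control values. Its log2 fold change was -1.72 (SE 0.46) at an unadjusted p of 0.0116 and an adjusted p of 0.99991, by edgeR's quasi-likelihood test with Benjamini-Hochberg adjustment over 25565 genes. It therefore did not pass, and over all fits tried the adjusted p ranged from 0.260 to 1.0.

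**Figure D2:**
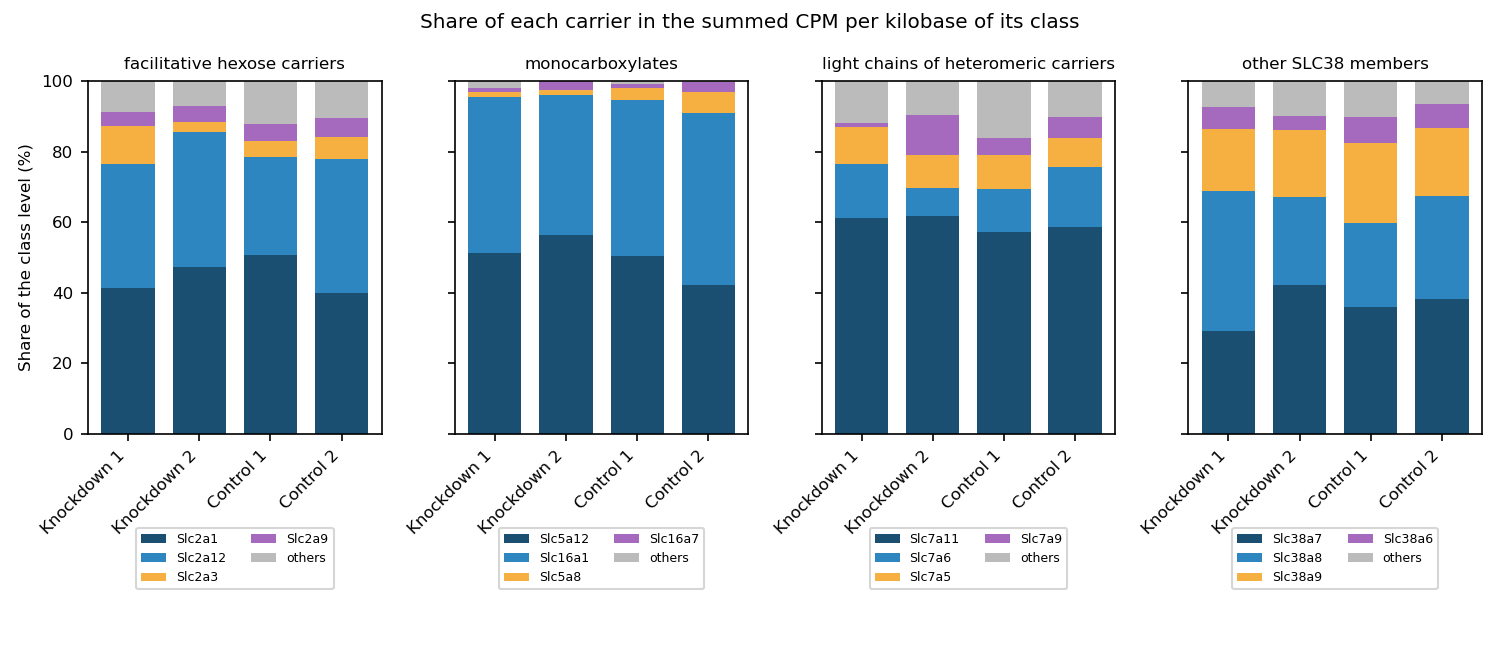
Share of each carrier in the summed CPM per kilobase of its class (y axis, %) in the 2 knockdown and 2 control libraries (x axis), for facilitative hexose carriers, monocarboxylates, light chains of heteromeric carriers and the SLC38 members outside systems A and N. Slc5a12 held 51.3 and 56.3% of its class in knockdown and 50.4 and 42.1% in control, and Slc7a11 held 61.1 and 61.7% in knockdown and 57.4 and 58.7% in control.

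Of the amino acid genes, Slc3a2 had the highest level per kilobase. It encodes 4F2hc, the heavy chain that brings several light chains to the membrane, and spans 8706882 to 8723369 on chromosome 19 (minus strand). Its level was 36.6 and 42.5 CPM per kilobase in knockdown and 43.8 and 43.2 CPM per kilobase in control. The groups did not overlap, yet the knockdown libraries stood further from each other than the second of them stood from control, and the log2 fold change was -0.14 (SE 0.12). The other heavy chain, Slc3a1, which pairs with Slc7a9, had 0.0730 and 0.272 CPM per kilobase in knockdown and 0.273 and 0.345 CPM per kilobase in control. Opposite-strand Prepl, the more abundant gene of the pair, covers 26.5% of the Slc3a1 exon bases.

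The leading light chain was Slc7a11, the cystine-glutamate exchanger known for supplying glutathione synthesis, on chromosome 3 from 49892526 to 50443614 (minus strand). It had 102 and 106 CPM in knockdown and 104 and 110 CPM in control, with a log2 fold change of -0.04 (SE 0.12). The 95% interval of that difference ran from -0.33 to 0.25. Next was Slc7a6, encoding y+LAT2, with 1.83 and 0.988 CPM per kilobase in knockdown and 1.56 and 2.29 CPM per kilobase in control. Slc7a5, encoding LAT1, a carrier of large neutral amino acids, had 1.26 and 1.15 CPM per kilobase in knockdown and 1.26 and 1.13 CPM per kilobase in control. The level of Slc3a2 was 3.11 and 3.90 times the summed level of the 6 light chains that pair with it in knockdown, and 3.68 and 3.42 times in control. This ratio depends on length: in CPM without length it was 1.08 and 1.25 in knockdown and 1.27 and 1.17 in control.

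Cationic amino acids had Slc7a2, encoding CAT2, as their leading carrier, on chromosome 8 from 40862396 to 40922308 (plus strand). It had 150 and 154 CPM in knockdown and 124 and 131 CPM in control. Both knockdown libraries were higher than both control libraries, with a log2 fold change of 0.25 (SE 0.11) and a 95% interval from -0.02 to 0.52. Slc7a1, encoding the widespread CAT1, had 11.4 and 14.5 CPM in knockdown and 9.24 and 10.8 CPM in control, a log2 fold change of 0.37 (SE 0.26). Slc7a14, a lysosomal relative, overlapped between groups, with 13.7 and 11.2 CPM in knockdown and 11.0 and 14.0 CPM in control. Neither Slc7a1 nor Slc7a2 passed the test.

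Sodium-coupled neutral amino acids were led by Slc6a15, which encodes a carrier of branched-chain amino acids and proline and spans 103367783 to 103419377 on chromosome 10 (plus strand). It had 174 and 193 CPM in knockdown and 159 and 173 CPM in control. The groups stood apart by a narrow gap, and the log2 fold change was 0.15 (SE 0.12). Slc6a20a, a proline and imino acid carrier, had 12.1 and 9.90 CPM in knockdown and 14.9 and 15.3 CPM in control, with a log2 fold change of -0.45 (SE 0.23). Its knockdown values were the lower ones without overlap. Of the Slc6a20a exon sequence, 15.3% of 50-base words also occur in its paralog Slc6a20b, and the antisense gene Gm17120 covers 13.8% of its exon bases, so its counts are uncertain.

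Glycine, a major osmolyte of early embryos, had Slc6a9, encoding GLYT1, as its leader, with 4.51 and 7.21 CPM per kilobase in knockdown and 5.76 and 5.24 CPM per kilobase in control. The knockdown libraries enclosed the control libraries, and opposite-strand Ccdc24 covers 27.8% of the Slc6a9 exon bases. Slc6a6, the taurine carrier, had nearly equal values in the knockdown libraries, with 44.2 and 44.1 CPM in knockdown and 47.8 and 42.9 CPM in control. Its log2 fold change was -0.04 (SE 0.15), and the control libraries enclosed the knockdown libraries. Slc6a21, with no assigned substrate, had 8.58 and 6.28 CPM in knockdown and 5.71 and 3.81 CPM in control, without overlap.

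Acidic amino acids were led by Slc1a1, a glutamate and aspartate carrier, with 13.5 and 13.1 CPM in knockdown and 18.6 and 15.2 CPM in control. The groups did not overlap, with a log2 fold change of -0.35 (SE 0.22), and opposite-strand 4430402I18Rik covers 31.9% of its exon bases. Slc1a5, encoding the glutamine exchanger ASCT2, had 1.66 and 0.495 CPM per kilobase in knockdown and 1.02 and 1.09 CPM per kilobase in control. The control values lay between the knockdown values. Slc6a4, the serotonin carrier and leader of the monoamine class, had 0.754 and 0.703 CPM per kilobase in knockdown and 1.13 and 0.849 CPM per kilobase in control, without overlap.

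SLC38 carriers had no settled leader. Slc38a7, a lysosomal glutamine carrier, had 1.42 and 2.32 CPM per kilobase in knockdown and 1.65 and 2.12 CPM per kilobase in control, and its range overlapped that of the next carrier. That was Slc38a8, with 1.94 and 1.38 CPM per kilobase in knockdown and 1.10 and 1.64 CPM per kilobase in control, the higher of the pair in the first knockdown library. Slc38a9, the lysosomal arginine sensor of mTORC1, had 14.5 and 17.4 CPM in knockdown and 17.3 and 17.8 CPM in control, with a log2 fold change of -0.14 (SE 0.21). Slc38a9 became the leader when levels were computed without length or with the median transcript length. In system A and N, Slc38a5 had 0 and 0.442 CPM per kilobase in knockdown and 0.513 and 0.461 CPM per kilobase in control. Slc38a1 had 0.359 and 0.407 CPM per kilobase in knockdown and 0.272 and 0.327 CPM per kilobase in control, and was the leader of the class under the longest, the median or no transcript length and without either control library. Slc36a1, a proton-coupled amino acid carrier of lysosomes, had 5.39 and 3.37 CPM in knockdown and 2.72 and 2.74 CPM in control, without overlap.

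Carriers outside these substrates included Slc43a3, a nucleobase carrier on chromosome 2 from 84936579 to 84958509 (plus strand). It had 119 and 152 CPM in knockdown and 148 and 137 CPM in control, so the control libraries lay within the knockdown range, and the log2 fold change was -0.07 (SE 0.15). Slc16a10, an aromatic amino acid carrier also known as TAT1, had 53.8 and 58.4 CPM in knockdown and 50.1 and 53.3 CPM in control, a log2 fold change of 0.12 (SE 0.14). Slc16a6, which encodes MCT7, a carrier of ketone bodies and taurine, had 8.70 and 4.36 CPM per kilobase in knockdown and 5.48 and 6.09 CPM per kilobase in control. The knockdown libraries enclosed the control libraries, and opposite-strand Amz2 covers 21.5% of the Slc16a6 exon bases. Next to it stood Slc16a11, with 2.91 and 2.20 CPM per kilobase in knockdown and 3.24 and 2.54 CPM per kilobase in control, where the groups overlapped. Slc5a6, the sodium-coupled multivitamin carrier for biotin and pantothenate, had 8.04 and 6.85 CPM in knockdown and 15.1 and 9.47 CPM in control. Both of its knockdown values were lower, with a log2 fold change of -0.72 (SE 0.32) that did not pass the test, and opposite-strand Atraid covers 9.92% of its exon bases.

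The comparison between groups was made over all genes, and 84 of the 102 genes passed the filter on low counts. By edgeR's quasi-likelihood test, 0 of the 84 passed an adjusted p of 0.05 upwards and 0 downwards, against 0% of 25565 genes in each direction, and the smallest adjusted p was 0.99991. Unadjusted, 2 (2.38%) were higher and 3 (3.57%) lower at a p under 0.05, against backgrounds of 1.56 and 2.29%. limma-voom called 0, with 0 higher and 1 lower unadjusted (0 and 1.19%, against 1.22 and 1.90% of all genes). DESeq2 called 0 higher and 1 lower, against backgrounds of 0.0786 and 0.13% of 25430 genes. Its unadjusted counts were 4 higher and 4 lower (4.76% each), against 2.35 and 3.13% of all genes. The groups did not overlap for 15 genes with higher knockdown values (17.9%) and for 19 with lower ones (22.6%), against 15.6 and 17.1% of all genes tested. Of the 5 genes past an unadjusted p of 0.05 by edgeR, 4 have a whole group at 0 counts. They entered the test only through the other group, so they had to differ. Without such genes, 0 of 80 were higher and 1, Slc5a8, was lower (1.25%), against 1.06 and 1.45% of 25213 genes, and no count here is read as a result about the transporters.

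The median log2 fold change of the 84 genes was -0.14, with 51 (60.7%) below 0, against -0.0025 and 50.3% for all 25565 genes. Of those averaging 10 CPM or more, 17 of 20 genes (85%) had a 95% interval within 2-fold of no change, against 7184 of 8185 genes (87.8%). The 3 exceptions were Slc7a1, Slc16a6 and Slc6a20a. Counts simulated for the same comparison, with 25565 genes in the fit, were called for 2 of 19 genes changed 2-fold, 16 of 19 changed 4-fold and 19 of 20 changed 8-fold at this level of expression. In these simulations a 2-fold change was mostly not detected with 2 libraries a group.

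**Figure D3:**
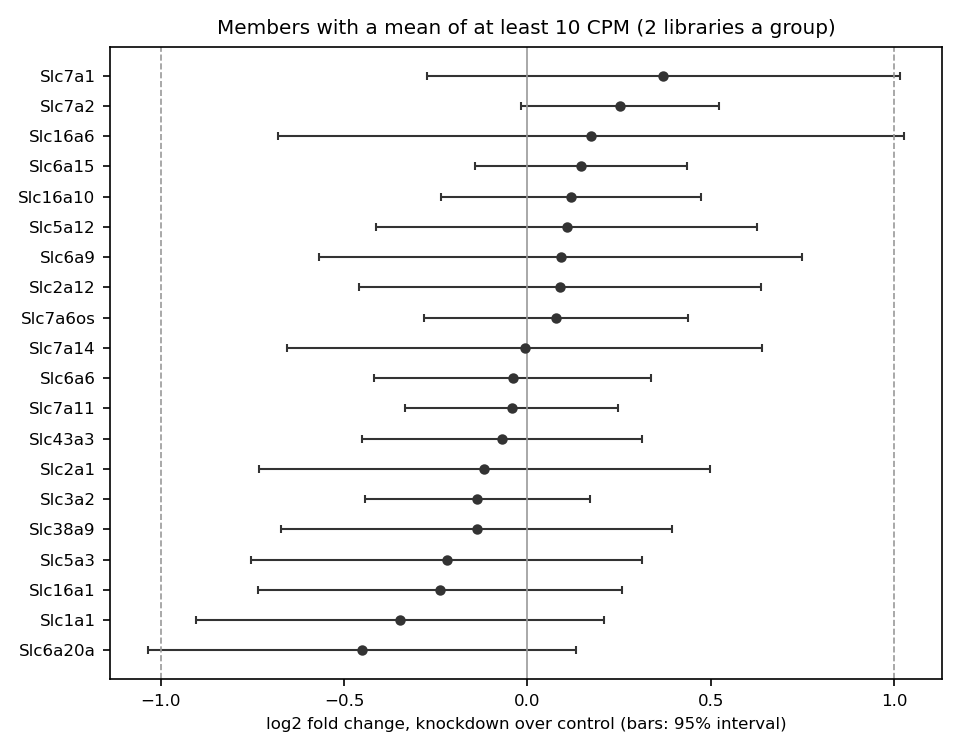
Log2 fold change of knockdown over control (x axis, dashed lines at 2-fold) for the 20 genes averaging 10 CPM or more (rows), as edgeR estimates with 95% intervals from 2 libraries a group. Every interval includes 0, and those of Slc7a1, Slc16a6 and Slc6a20a reach past 2-fold.

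The 5 genes at an unadjusted p under 0.05 by edgeR were Slc5a8, described above, and 4 genes with a whole group at 0 counts. Slc43a1, encoding LAT3, a carrier of branched-chain amino acids, had 65 and 25 counts in knockdown and 0 and 0 in control. Slc36a4, an amino acid carrier of the proton-coupled family, had 73 and 19 counts in knockdown and 0 and 0 in control. A floor was set at 3 counts pooled over the control group. The pooled knockdown level was 26.6 times this floor for Slc43a1 and 27.2 times for Slc36a4. Most counts of both genes came from the first knockdown library, and without it the ratios were 15 for Slc43a1 and 11.4 for Slc36a4. Both genes passed edgeR's filter on low counts only through the knockdown group, so these ratios are no measured size of an effect. Neither reached 1 CPM in any library, and neither passed the adjusted threshold.

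In the other direction, Slc7a15, a light chain relative, had 0 and 0 counts in knockdown and 132 and 13 in control. Its pooled control level was 54.5 times the same floor, here pooled over the knockdown group. Of its 145 control counts 132 came from the first control library, without which the ratio was 10.3. Slc6a17, a vesicular carrier of neutral amino acids, had 0 and 0 counts in knockdown and 10 and 11 in control. Its pooled control level was 7.89 times the floor, or 8.69 times without the first control library and 7.16 times without the second. Both genes passed edgeR's filter on low counts only through the control group, so these ratios are no measured size of an effect. DESeq2 called Slc7a15 at an adjusted p of 0.0377, in a fit that took every gene with any counts and did not use edgeR's filter. That call rests on counts of the control group, most of them from 1 library. Over all fits tried the adjusted p ranged from 0.0377 to 1.0. The floor covers counting error in the group at 0 only, and not that in the other group. It does not cover amplification either, since amplified cDNA reads without molecular identifiers are not independent molecules.

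Spread between libraries of 1 group was close to that of all genes. Of 57 genes averaging 1 CPM or more, 10 (17.5%) differed over 2-fold between the knockdown libraries and 3 (5.26%) between the control libraries, against 15.7 and 7.43% of all genes at that level. The knockdown libraries differed more than the control libraries for 33 of the 57 (57.9%), against 65.7% of all such genes. In 7 of the 10 the second knockdown library was the lower one (70%), against 74.3% of all such genes. Slc7a9, a light chain for cystine, had 0.414 and 3.79 CPM in knockdown and 1.65 and 2.07 CPM in control. Slc2a8, an intracellular hexose carrier, had 2.59 and 0.607 CPM in knockdown and 2.59 and 1.73 CPM in control. Slc38a2, encoding the amino-acid-regulated SNAT2, had 0.414 and 1.85 CPM in knockdown and 1.91 and 2.76 CPM in control. Slc7a9 and Slc38a2 were thus low in the first knockdown library and Slc2a8 in the second. Between the control libraries the widest was Slc38a3, encoding SNAT3, with 1.08 and 0.884 CPM in knockdown and 0.192 and 1.95 CPM in control.

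**Figure D4:**
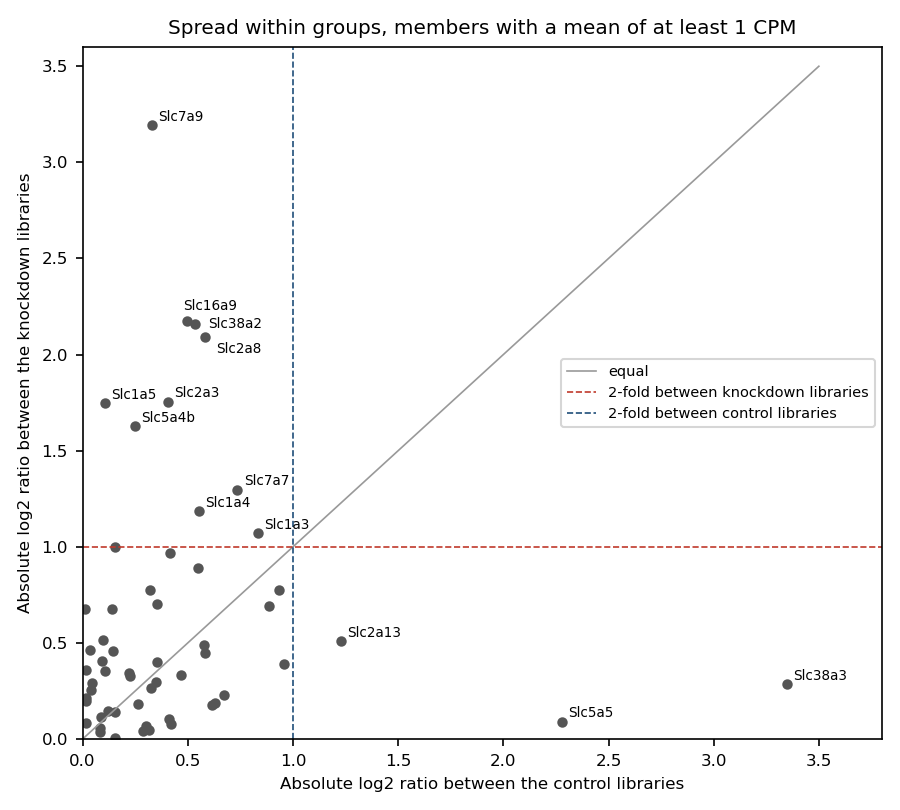
Absolute log2 ratio between the knockdown libraries (y axis) against that between the control libraries (x axis) for the 57 genes averaging 1 CPM or more, with dashed lines at 2-fold and genes past either line named. Of these, 10 genes lie past the line for knockdown and 3 past that for control.

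Partners of the carriers were counted as lists. Among 7 genes that pair with SLC16 or SLC6 carriers or admit pyruvate to mitochondria, 0 were called and 0 had an unadjusted p under 0.05, with a median log2 fold change of 0.03. Bsg, the chaperone of MCT1 known as basigin, had 50.1 and 71.1 CPM in knockdown and 63.3 and 52.6 CPM in control. Mpc1, a subunit of the mitochondrial pyruvate carrier, had 240.1 and 219.1 CPM in knockdown and 219.6 and 224.4 CPM in control. Of 6 genes tested for lysosomal amino acid exit, 0 were called and 1 was lower at an unadjusted p under 0.05, against 2.29% of all genes. That gene was Pqlc2, a lysosomal exporter of cationic amino acids, with 2.75 and 1.82 CPM in knockdown and 5.11 and 4.28 CPM in control, and the list's median was -0.17. Of 29 genes of amino acid sensing by mTORC1 and GCN2, 0 were called and 0 had an unadjusted p under 0.05, and their median log2 fold change was 0.0009.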

How the data were processed

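The authors deposited whole-number counts per gene for 4 libraries, not normalized, with versioned Ensembl gene IDs. Per the submitters' processing notes, the build was mm10, and the tools included HISAT2 2.1.0, Trim Galore 0.6.5, Picard 2.18.2 and CASAVA 1.8. The sources used here do not name the counting tool, annotation or strand setting, so reads of overlapping genes on opposite strands cannot be told apart. By ID, 53620 rows matched GENCODE M21, and 95 did not, at most 0.0164% of a library's counts. Counts were tested with edgeR 4.0.16 (R 4.3.3; filterByExpr with a minimum of 10, TMM scaling, quasi-likelihood F-test, two-sided, Benjamini-Hochberg over 25565 genes, threshold 0.05). limma 3.58.1 and DESeq2 1.42.0 were alternatives, with other scalings, filters, blocks and each library left out. The test was tested on simulated data. CPM are TMM-scaled. An exact permutation of 2 against 2 libraries cannot go below p = 0.333, so single sums were not tested.

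The genes and lists were chosen with earlier results of these data known. Named are each class's leader, the next carrier where it reached 1 CPM per kilobase, genes with an unadjusted p under 0.05 by edgeR and genes averaging 10 CPM or more. Slc2a3, Slc2a9, Slc2a10, Slc2a13, Slc3a1, Slc5a4a, Slc38a1, Slc7a5, Slc7a9, Slc16a3, Slc16a7, Slc2a8, Slc38a2, Slc38a3 and the partners Bsg and Mpc1 were added after their values were seen. Whether replicate numbers pair the libraries cannot be decided from 2 libraries a group, and the main fit took the libraries as unpaired.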

Additional observations from a re-analysis of the deposited data

How the results depend on the processing

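The median log2 fold change of the transporter genes stayed below 0 in the 12 alternatives tried, but its size moved. It was -0.10 with DESeq2, -0.22 with limma-voom, -0.18 with library size alone, -0.12 with no filter on low counts, -0.045 among genes averaging 10 CPM or more, and between -0.12 and -0.0026 with 1 library left out; with DESeq2's size factors in edgeR it was -0.13. The cause was not tested. The median of all genes also moved, and without the first knockdown library the median was -0.06 for the transporter genes, against -0.07 for all genes, so the transporter genes did not lie below all genes there. DESeq2 called 1 transporter gene lower, Slc7a15, and the other alternatives called 0 in either direction. At an unadjusted p under 0.05, 1 of 86 genes was higher and 11 lower without the first knockdown library (1.16 and 12.8%, against 5.66 and 7.44% of all genes), and 7 and 9 of 90 without the second (7.78 and 10%, against 3.26 and 4.77%). The counts were 4 and 1 of 88 without the first control library (4.55 and 1.14%, against 1.08 and 0.811%), 3 and 2 of 89 without the second (3.37 and 2.25%, against 1.09 and 0.907%), and 4 and 3 of 95 with no filter (4.21 and 3.16%, against 1.10 and 1.58%). With all 4 libraries they were 2 and 3 of 84. With a single library left in a group, that library is assumed to vary like the other group.

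Replicate numbers are shared by the groups, but they come from the titles alone, and deviations from the group means in same-numbered libraries correlated at -0.207 over 8185 genes. The fit with the replicate block gave a median of -0.22 and called 0 genes. The crossed pairing, chosen after seeing the data, also gave -0.22 and 0. Unadjusted, 2 of 84 genes were higher and 2 lower in both fits (2.38% each). The shares of all genes were 0.677 and 1.20% with the replicate block and 1.10 and 1.83% with the crossed pairing. Of the class leaders, Slc38a5 gave way to Slc38a1 and Slc38a7 to Slc38a9 as stated above, and Slc5a4b gave way to Slc5a2 with the median transcript length. For the 4 genes with a whole group at 0 counts, depth allows no more than the ratios to the floor given above. Values without such genes, ratios to the floor without a library, and the heavy chain ratio and the 4 highest carriers under other lengths were chosen after seeing the data.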
